A study of Apis mellifera with 9 samples.

Results

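Narrow regions of H3K27me3 that were shared by all ovary samples of the honeybee Apis mellifera are described here. Peaks of 6 H3K27me3 lists were merged wherever they shared at least 1 base, which gave 53589 regions. The narrow shared regions were chosen by 2 measured values, a merged width under 1000 bases and at least 1 base of a peak of each of the 6 lists. They numbered 7491, or 14.0% of all merged regions and 30.1% of the 24847 regions found in every list. Of the 31569 merged regions under 1000 bases, 23.7% met the second condition, and this share is the selection itself and not a finding. Because presence and width chose the regions, neither is tested below.

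The samples were dissected ovaries, 2 per ovary type. Queens were egg layers of about 12 months that headed colonies. Queen-less workers came from nucleus boxes without a queen, 2 to 4 weeks after these were set up, and their ovaries had a score of 3. Queen-right workers lived in a hive with a laying queen, and their ovaries had a score of 0. No ovary score is given for queens. No genetic change or drug was used in any group, and all samples were female. Repeated immunoprecipitations were combined within each sample. The protocol calls the samples of a group biological duplicates, but does not say how many bees or which colonies each holds. The lists hold positions only and no expression, so the tissue could not be checked by marker genes.

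H3K27me3 is the trimethylated form of lysine 27 on histone H3. Polycomb repressive complex 2 writes it, and in animals it is known for broad domains over genes that are kept silent, among them developmental regulators. Narrow islands of the mark are also known, for example around sites where Polycomb proteins are recruited in Drosophila. In broad domains the mark can spread, since the complex that writes it also binds it. In the worker ovary, the pheromone of the queen holds egg production in check, and the ovary can activate after the queen is lost.

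The 6 lists held 48654 to 50922 peaks and covered 48.8 to 78.0 Mb of scaffolds with a span of 220.2 Mb, measured up to the last peak of each scaffold. Queen-less worker 2 stood apart with the most covered bases and the highest scores, a median of 73 against 24 to 48 in the other lists. The score is the peak caller's value for a peak, and its lowest value was 10 in every list. Read depth is unknown, and its part in the results was not tested. Within each list no peak was narrower than 147 bases, the extension length, and no gap between peaks was below 589 bases. Merged regions could lie closer together than that, since their ends come from different lists.

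The narrow shared regions held little sequence but lay on many scaffolds. Together they spanned 4.49 Mb, which was 2.04% of the scaffold span, 4.81% of the bases of all merged regions and 5.96% of the bases of shared regions. They were found on 383 of 1834 scaffolds. Their median width was 567 bases, with quartiles at 440 and 756 and a range of 195 to 999 bases. In 7490 of the 7491 regions each list had exactly 1 peak.

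Placement of the 6 peaks within a region was compared next. The stretch under peaks of all 6 lists, called the core here, had a median of 235 bases with quartiles at 168 and 342, and cores together made up 45.6% of the bases. In 6364 regions (85.0%) the core was at least 147 bases long, about the length of DNA around a nucleosome. The peak midpoints of the 6 lists lay within 86.5 bases of each other in the median region and within 147 bases in 71.1% of regions. In 31 regions the 6 peaks had no base in common, although they formed a single merged region.

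The narrowest of all lay on scaffold NW_003377880.1 from 419453 to 419647 and was 195 bases wide with a core of 133 bases. Its peaks measured 171 and 148 bases in queens 1 and 2, 150 and 173 in queen-less workers 1 and 2, and 168 and 184 in queen-right workers 1 and 2. No peak could be under 147 bases or over 195 bases there, so nearly equal widths follow from picking the narrowest region. The next lay on NW_003377995.1 from 591857 to 592056, with a width of 200 bases and a core of 132 bases.

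The widest inside the limit, where peaks had room to differ, did not have such equal peaks. The region on NW_003377997.1 from 165574 to 166572 was 999 bases wide because queen 1 had a peak of 993 bases there, while the other lists had peaks of 237 to 456 bases. A region of the same width on NW_003378123.1 from 3434224 to 3435222 took its width from a peak of 999 bases in queen-less worker 2, against 228 to 345 bases elsewhere. Just outside the limit, NW_003377973.1 from 58256 to 59255 was 1000 bases wide with 727 to 958 bases under peaks of each list. The other at that width, on NW_003378088.1 from 2767327 to 2768326, had peaks of 160 to 257 bases in 3 lists and of 910 to 991 bases in the other 3. Over the 20 bases on each side of the limit, 125 regions inside had a median core of 302 bases and 161 outside had one of 275 bases, so the limit cut through a continuous range.

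Widths under peaks were uneven between lists. Peaks covered 72.0% and 66.0% of the bases of the narrow shared regions in queens 1 and 2. The share was 66.4% and 85.6% in queen-less workers 1 and 2, and 76.8% and 65.8% in queen-right workers 1 and 2. Queen-less worker 2 was the highest, and the samples of each group lay between or beside those of the others. This list held the widest peak in 56.0% of the regions, counting ties, and queen-less worker 1 the narrowest in 32.9%. Median peak widths were 393 and 357 bases in the queen lists, 355 and 477 in the queen-less lists, and 418 and 356 in the queen-right lists. Group means of the covered share were 69.0 ± 4.26% in the queen lists, 76.0 ± 13.6% in the queen-less lists and 71.3 ± 7.77% in the queen-right lists (SD, n = 2 each).

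**Figure D1:**
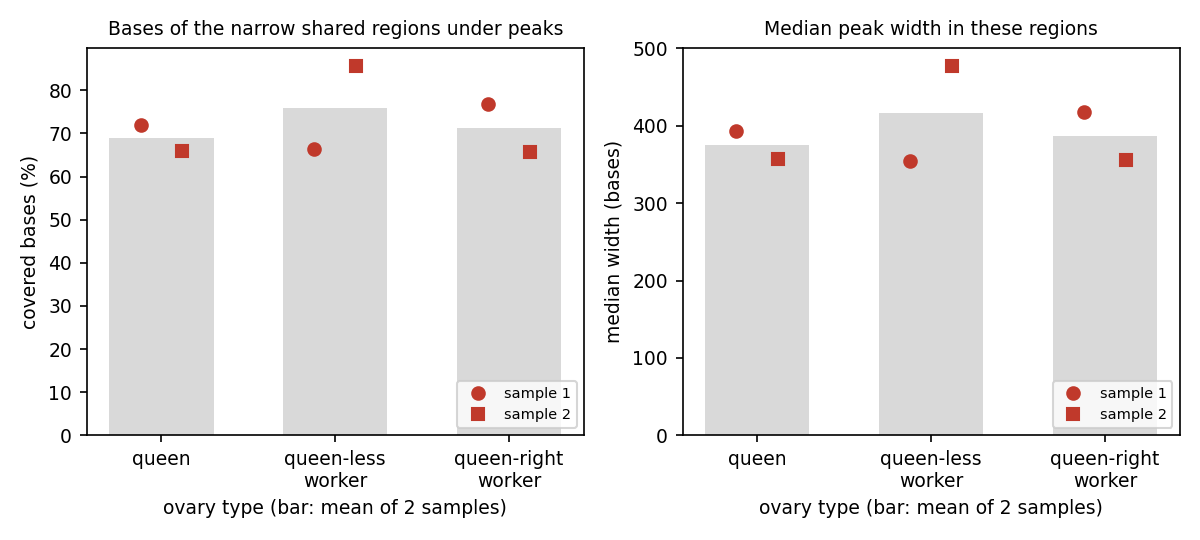
Left, the percentage of the bases of the narrow shared regions that lies under peaks, and right, the median peak width in bases in these regions, for 3 ovary types. Points are single samples and bars are means of 2 samples; queen-less worker 2 is highest in both plots, at 85.6% and 477 bases, and the group ranges overlap.

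No ovary type differed in covered share beyond the spread of its samples. Queens minus queen-less workers gave -6.95 percentage points (exact permutation p = 0.667), the queen mean less the queen-right mean -2.28 (exact permutation p = 1) and queen-less minus queen-right workers 4.67 (exact permutation p = 0.667). All were below the pooled replicate SD of 9.37 points. With 2 samples against 2 the two-sided test cannot give a p below 1 in 3. Single libraries set the signs. Without queen-less worker 2, and with regions chosen anew on the other 5 lists, the differences were 2.65, -1.73 and -4.37 points. Queens minus queen-right workers was 0.507 without queen 2 and 3.98 without queen-right worker 1, and queen-less minus queen-right workers was -0.329 without queen-right worker 2.

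Score rank within a list was examined next, since scores of different lists cannot be compared directly. A score percentile is the share of peaks of a list that score lower, with tied peaks placed in the middle of their ranks. A region took the highest score of its peaks in a list. The scores are from the same peak calls that chose the regions, so the ranks are a description. The narrow shared regions had a median rank above the middle of every list, but spread widely, with lower quartiles of 28.4 to 52.3. Their median percentiles were 63.6 and 57.8 in queens 1 and 2, 55.9 and 71.4 in queen-less workers 1 and 2, and 63.7 and 59.1 in queen-right workers 1 and 2. Queen-less worker 2 was again the highest.

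Compared with longer shared regions, those of 1000 bases or more, the narrow ones ranked lower in 6 of 6 lists, where the longer had medians of 64.7 to 72.1. The distance was 0.677 percentile points in queen-less worker 2 and between 3.94 and 11.1 in the other lists. Shared regions of at least 10 kb had medians of 79.0 to 86.1. Longer regions can hold several peaks of a list, and taking the highest can raise their rank. How far it did was not tested, here or in the comparisons with longer regions below. Narrow regions with peaks of 1 to 5 lists ranked far below, with medians of 23.0 to 36.1. Partial regions lack a peak in at least 1 list by the rule, so this step is no independent result.

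**Figure D2:**
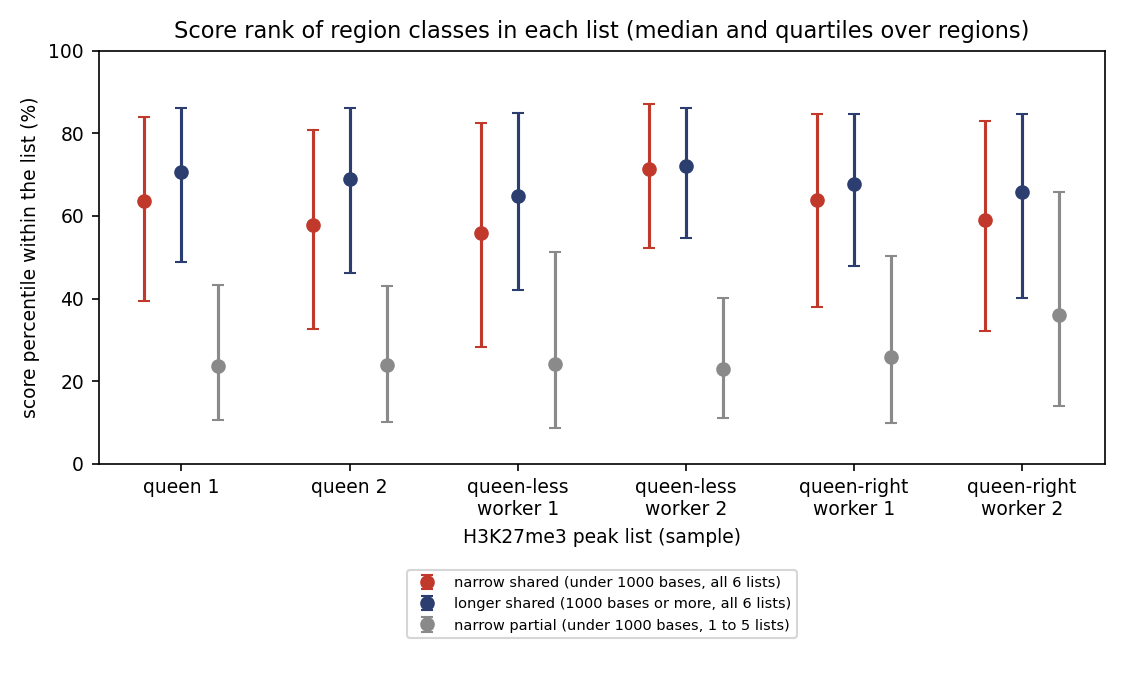
Score percentile within each of the 6 lists (y axis, percent of the peaks of that list) for narrow shared regions, longer shared regions and narrow regions of 1 to 5 lists. Points are medians and bars the quartiles over regions, not over samples; narrow shared regions have medians of 55.9 to 71.4, below longer shared regions in each list and above narrow partial regions.

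The rank of a single region varied widely from list to list. The lowest and highest of its 6 percentiles had medians of 25.2 and 89.7, and the range between them had a median of 54.0 points, against 41.1 points in longer shared regions. Only 80 regions (1.07%) were in the top 10% of every list and 1535 (20.5%) in the upper 50% of every list, compared with 1.46% and 38.2% of longer shared regions. In the lower 50% of every list were 358 regions (4.78%), against 3.67% of longer shared regions. At least 1 list placed 3730 regions (49.8%) in its lowest 25% of peaks, against 29.0% of longer shared regions. Of the narrow shared regions, 4.08% were in that lowest part in queen-less worker 2 and 12.1% to 21.1% in the other lists. Within the width limit, wide peaks were not the high-scoring ones to any large degree. Spearman correlations of peak width and score percentile were 0.0806 to 0.211 over the 7491 regions of a list. The limit cuts the range of widths, which can lower such a correlation.

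Ranks were then compared between lists over the same regions. The 2 queens were the most alike, with a Spearman correlation of 0.70 over the 7491 regions. The 2 queen-right workers reached 0.52 and the 2 queen-less workers 0.44. The 4 pairs of a queen and a queen-less list averaged 0.48 (0.40 to 0.57), queen-less and queen-right workers 0.32 (0.21 to 0.45), and queens and queen-right workers 0.30 (0.23 to 0.36). Queen-less worker 2 was closer to both queens, at 0.55 and 0.57, than to queen-less worker 1, at 0.44, and its value with queen-right worker 1 was 0.45. The 3 lowest values all involved queen-right worker 2. In longer shared regions each of the 15 values was higher, with 0.74, 0.59 and 0.51 for queens, queen-right workers and queen-less workers. The points of such a correlation share libraries and local sequence, so these values describe the lists and carry no p.

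**Figure D3:**
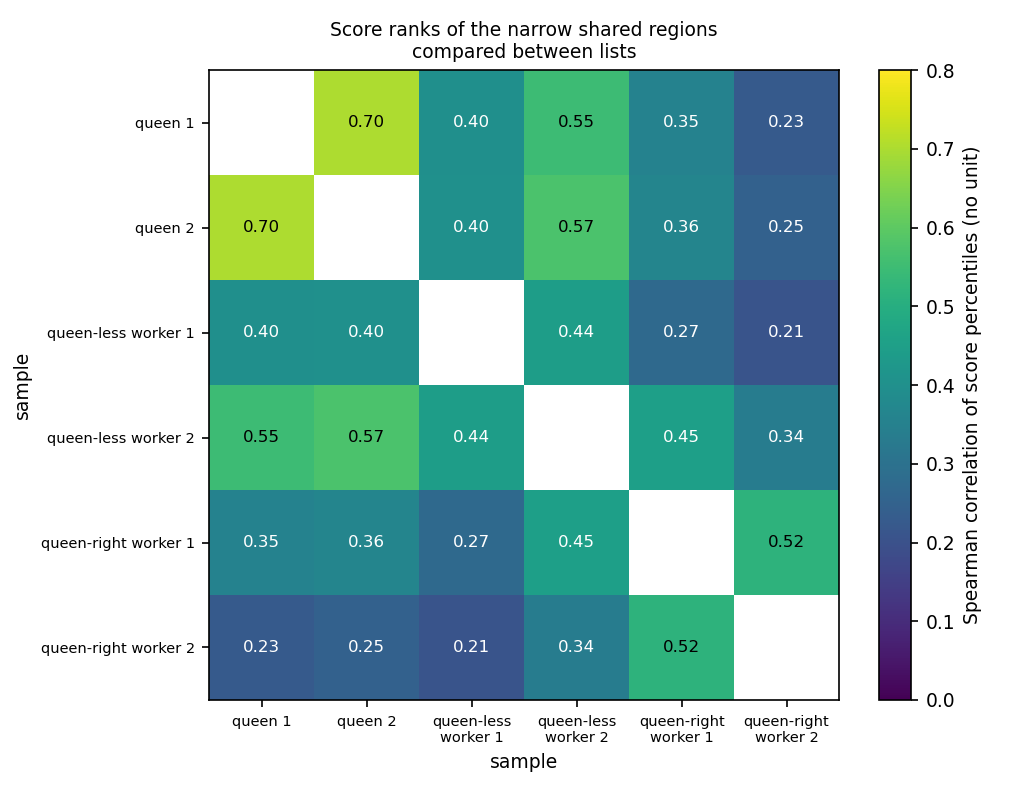
Spearman correlation (no unit) of score percentiles between each pair of the 6 lists over the 7491 narrow shared regions. Each square is a pair of samples; the 2 queens reach 0.70, queens and queen-less worker 2 0.55 and 0.57, and queen-less worker 1 with queen-right worker 2 has the lowest value, 0.21.

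Average rank did not separate the ovary types with the settings given above. The group means of the median percentile were 60.7 ± 4.10 in the queen lists, 63.7 ± 11.0 in the queen-less lists and 61.4 ± 3.29 in the queen-right lists (SD, n = 2 each). Queens minus queen-less workers gave -2.94 points (exact permutation p = 1), the queen mean less the queen-right mean -0.698 (exact permutation p = 0.667) and queen-less minus queen-right workers 2.24 (exact permutation p = 1). The pooled replicate SD was 7.01 points. Without queen-less worker 2 the differences were 3.21, -1.26 and -4.48 points, so this library set the sign of both differences that involve its group.

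Single regions were then sorted by whether the 2 samples of one group both ranked above both samples of another. With 2 samples per group this cannot be tested for a region, and the counts are read against the same share over all 24847 shared regions. Queen-less workers ranked above queens in 1890 narrow shared regions (25.2%, background 21.3%) and queens above queen-less workers in 1053 (14.1%, background 16.2%). Queen-right workers ranked above queens in 1995 (26.6%, background 24.1%) and below them in 1851 (24.7%, background 27.3%). Queen-less workers ranked above queen-right workers in 1865 (24.9%, background 24.8%) and below them in 1255 (16.8%, background 16.9%). Each share lay within 4 percentage points of its background.

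The order of the directions depended on how the lists were ranked. When scores were ranked among the narrow shared regions alone, which removes a shift of a whole list, queens ranked above queen-less workers in 1505 regions (20.1%, background 19.4%) and below them in 1502 (20.1%, background 19.2%). Queens ranked above queen-right workers in 1938 (25.9%, background 25.7%) and below them in 1975 (26.4%, background 25.9%). Queen-less workers ranked above queen-right workers in 1579 (21.1%, background 21.3%) and below them in 1597 (21.3%, background 20.7%). Such ranking gives every list the same mean rank, so the near-equal counts in both directions follow from it and are no result. When each list was instead cut to equal covered bases by score, queens ranked above queen-less workers in 25.1% of the regions kept and below them in 14.5%, the opposite of the first order. The share over all shared regions was not computed under this cut, so the order cannot be read as particular to the narrow regions.

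Large gaps between groups were rare, and the widest of each comparison are given as examples of how far a region could differ. They were picked for their gap. On NW_003377933.1 from 230883 to 231417, scores were 62 and 44 in the queen-right lists and 17 and 42 in the queen-less lists, with 54 and 52 in the queen lists. Queen-right percentiles of 91.0 and 90.9 stood against 20.0 and 22.0 in the queen-less lists. On NW_003378099.1 from 747605 to 748093 the order was the opposite, with scores of 55 and 157 in the queen-less lists, 20 and 14 in the queen-right lists, and 61 and 80 in the queen lists. The percentiles were 99.5 and 94.6 against 16.4 and 5.82. Its peaks of 350 and 489 bases in the queen-less lists compared with 297 and 249 bases in the queen-right lists.

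Queens and queen-right workers differed most on NW_003378082.1 from 683773 to 684422. Scores there were 81 and 99 in the queen lists, 44 and 76 in the queen-less lists, and 16 and 11 in the queen-right lists. Queen percentiles of 97.0 and 96.6 stood against 7.87 and 0.701 in the queen-right lists, a gap of 88.7 points. Peaks measured 619 and 577 bases in the queen lists and 239 and 220 bases in the queen-right lists. In the other direction, NW_003378401.1 from 251 to 600 had scores of 94 and 44 in the queen-right lists and 17 and 12 in the queen lists. This region lay on a scaffold with a span of 17937 bases.

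Queens and queen-less workers had the fewest large gaps. The widest gap with queens above was 53.2 points, on NW_003377887.1 from 98643 to 99049, where scores were 72 and 81 in the queen lists and 12 and 57 in the queen-less lists. With queen-less workers above it was 78.2 points, on NW_003378149.1 from 1445898 to 1446406, where scores were 40 and 133 in the queen-less lists and 16 and 20 in the queen lists. Gaps over 50 points numbered 4 (0.0534%, background 0.0201%) and 45 (0.601%, background 0.270%) in these 2 directions. They numbered 103 (1.37%, background 0.885%) and 104 (1.39%, background 0.712%) with queens above and below queen-right workers. With queen-less workers above and below queen-right workers they numbered 84 (1.12%, background 0.588%) and 20 (0.267%, background 0.145%). Each of these 6 counts was a larger share of the narrow shared regions (0.0534% to 1.39%) than of all shared regions (0.0201% to 0.885%), and ranks of narrow regions also had the wider range over all lists.

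The region whose lowest percentile over the 6 lists was highest lay on a scaffold with a longer region nearby. On NW_003378100.1 from 240339 to 240969 the scores were 110 and 131 in queens 1 and 2, 57 and 234 in queen-less workers 1 and 2, and 132 and 68 in queen-right workers 1 and 2. No list placed this region of 631 bases, with a core of 484 bases, below the percentile of 99.2, and a longer shared region lay 1237 bases away. The next highest by this measure lay at the first bases of their scaffolds, and both scored above the first region in every list but queen-right worker 1. NW_003378035.1 from 93 to 521 had scores of 220 and 220 in the queen lists, 139 and 247 in the queen-less lists, and 92 and 132 in the queen-right lists. NW_003378081.1 from 34 to 563 had 203 and 171, 145 and 325, and 92 and 94. Their nearest longer shared regions were 72966 and 114634 bases away. Within 1 kb of a scaffold start were 58 narrow shared regions (0.774%) and 52 longer ones (0.30%). The lowest percentile over the 6 lists had a median of 34.1 at these starts, against 25.2 over all narrow shared regions, and 5 of the 58 were in the top 10% of every list.

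At the other end, NW_003378065.1 from 161929 to 162353 had scores of 21 and 20 in the queen lists, 14 and 21 in the queen-less lists, and 15 and 11 in the queen-right lists, and no list ranked it above 16.0%. NW_003377960.1 from 1474190 to 1474672 had scores of 15 to 19 in the 6 lists and no percentile above 17.2. Both were thus low in each list.

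Isolation was measured as the gap in bases to the nearest other region on the same scaffold. Few regions of any class stood alone. Another merged region of any kind lay within 5 kb of 98.3% of the narrow shared regions, with a median gap of 857 bases. The share was 99.6% for longer shared regions and 91.4% for narrow regions of 1 to 5 lists. Of the narrow shared regions, 18 were farther than 10 kb from any other on their scaffold, and 41 had no other on their scaffold. The nearest shared region was at a median of 1325 bases, and the nearest longer shared region at a median of 2264.5 bases with quartiles at 914 and 6534. Within 1 kb of a longer shared region were 2060 (27.5%), within 5 kb 5106 (68.2%) and beyond 10 kb 1294 (17.3%), and 155 had none on their scaffold.

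In this respect they lay between the other classes. Longer shared regions had a median gap of 1042.5 bases to the next longer one, with 87.4% within 5 kb and 5.2% beyond 10 kb. Narrow regions of 1 to 5 lists had a median gap of 4075 bases, with 48.7% within 5 kb and 26.5% beyond 10 kb. The order was the same on scaffolds of at least 1 Mb, with 76.0% of narrow shared, 91.1% of longer shared and 59.4% of narrow partial regions within 5 kb. With peaks of every list over 50% or more of a region, fewer longer regions qualified and 32.1% of the narrow ones were within 5 kb of one. A shared region of 10 kb or more lay within 5 kb of 2.90% of the narrow shared regions. The share was 12.3% of the longer ones and 2.04% of the narrow partial ones. There were 1186 such regions, and 3541 narrow shared regions had none on their scaffold.

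**Figure D4:**
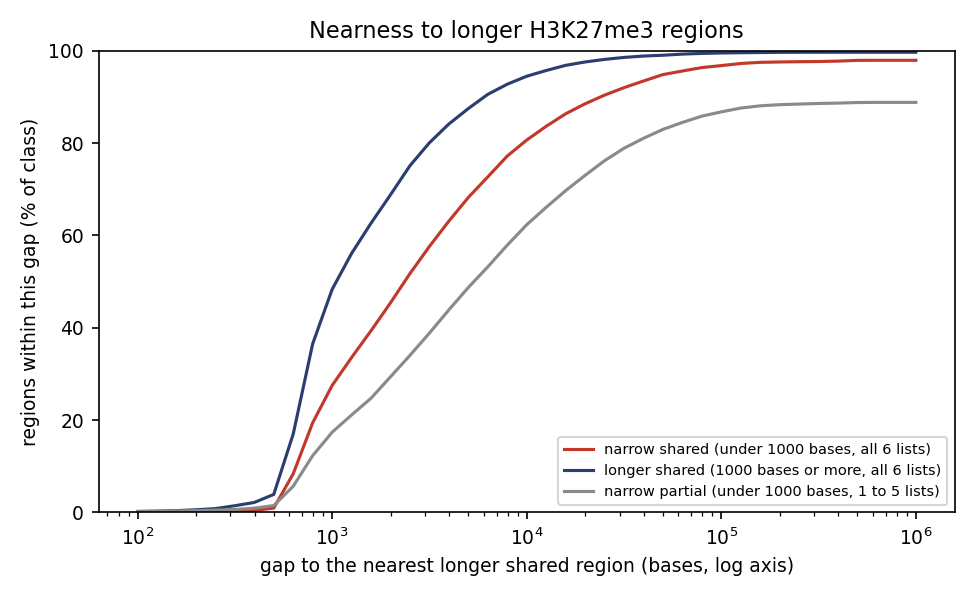
Cumulative percentage of regions (y axis) with a longer shared region within a given gap in bases (x axis, log scale), for narrow shared, longer shared and narrow partial regions. Regions with none on their scaffold keep the curves below 100%; at 5 kb the curves stand at 68.2%, 87.4% and 48.7%.

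Nearness to longer regions went with small differences in width and none in rank that all lists shared. Median width was 598.5 bases within 1 kb of a longer region, 571 bases at 1 to 5 kb, 553.5 bases at 5 to 10 kb and 529.5 bases beyond 10 kb, and the median core went from 244 to 215 bases. The 155 without a longer region on their scaffold did not continue this order, with a median width of 559 bases and a core of 235 bases. Their lowest percentile over the 6 lists had a median of 33.4, against 24.1 to 26.7 in the other classes of distance. Median percentiles within 1 kb and beyond 10 kb were 63.6 and 60.1 in queen 1 and 57.8 and 52.1 in queen 2. They were 55.9 and 60.4 in queen-less worker 1 and 74.0 and 68.6 in queen-less worker 2, and 67.7 and 57.3 in queen-right worker 1 and 59.1 and 62.5 in queen-right worker 2. Far regions thus ranked lower in 4 lists and higher in 2, with the samples of both worker groups going opposite ways.

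The most isolated with neighbours on both sides lay on NW_003378149.1 from 522696 to 523438. Its nearest merged regions were 13817 bases to the left and 15933 bases to the right, and the nearest shared region was 122915 bases away. Scores were 20 and 18 in the queen lists, 18 and 44 in the queen-less lists, and 28 and 22 in the queen-right lists, and the core was 400 of 743 bases. It ranked low in each list, at percentiles of 7.55 to 35.5. The next, on NW_003377884.1 from 305511 to 306219, had gaps of 13053 and 26812 bases and percentiles of 2.64 to 39.3, with a core of 77 bases.

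The kinds of shared region on either side were counted next. Narrow regions made up 30.1% of all shared regions. The counts were not set against a shuffled order, so they do not show whether narrow regions sit together more or less than that share gives. When only shared regions were counted as neighbours, 2759 (36.8%) stood between longer regions on both sides. A longer region on one side and a narrow one on the other was found for 2814 (37.6%), narrow ones on both sides for 1548 (20.7%), and 370 (4.94%) had a side without any shared region. Counted as unbroken runs, 2977 were single, which is 39.7% of the regions, and 866 runs held 2. Runs of 5 or more numbered 177 and held 17.6% of the regions, and 30 runs of 10 or more held 428 regions (5.71%).

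Spacing between consecutive narrow shared regions on a scaffold spread over several orders of magnitude. The 7108 gaps had a median of 10054.5 bases with quartiles at 3465 and 25363 bases, and ran from 318 to 1052948 bases. Of these gaps, 32.2% were within 5 kb and 4.53% were over 100 kb. Longer shared regions were closer together, with a median gap of 2023 bases, 73.2% within 5 kb and 0.617% over 100 kb. The median gap of the narrow regions depended on how many were kept, and was between 4990 bases with a limit of 2000 bases and 25311 bases with a limit of 500 bases.

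**Figure D5:**
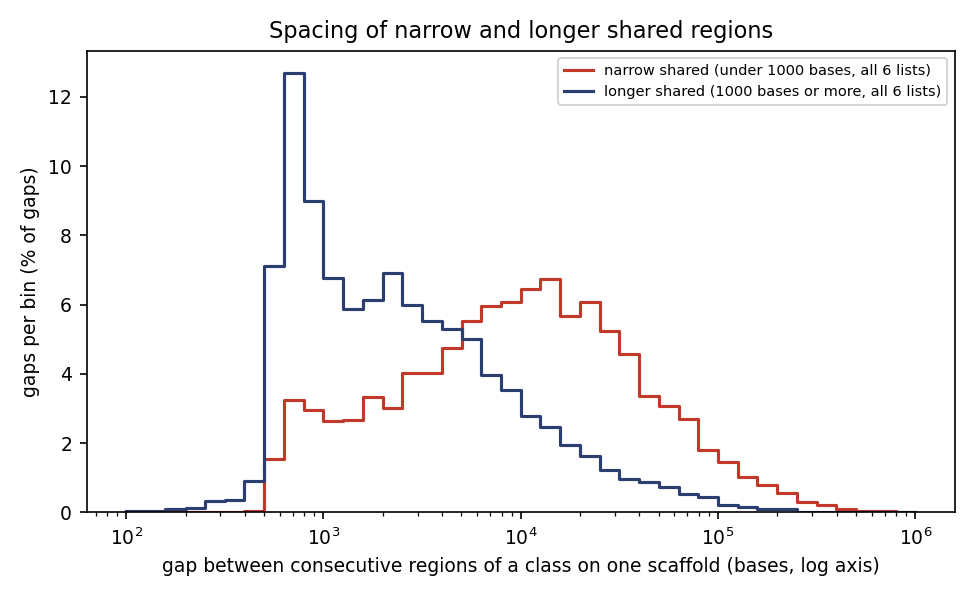
Percentage of gaps (y axis) by gap length in bases between consecutive regions of a class on a scaffold (x axis, log scale with equal log bins), for narrow shared and longer shared regions. The narrow regions have a median gap of 10054.5 bases and the longer ones 2023 bases, and few gaps of either class are under 589 bases, the smallest gap within any list.

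The longest run was on NW_003377862.1 from 80835 to 295331, where 29 narrow shared regions followed each other over 214497 bases with no longer shared region between them. Gaps in it ran from 731 to 21466 bases with a median of 5461.5 bases. Another 44 regions of 1 to 5 lists lay between them, and 0 of these reached 1000 bases. Median percentiles in this run were 72.1 and 71.5 in the queen lists, 72.9 and 73.4 in the queen-less lists, and 38.0 and 71.6 in the queen-right lists. Queen-right worker 1 was thus lower than the other 5 lists there. A run of 23 on NW_003378186.1 from 19598 to 510859 was looser, with a median gap of 13017 bases, and held 3 partial regions of 1000 bases or more. A run of 19 on NW_003377877.1 from 11913 to 76165 was tight, with a median gap of 1901.5 bases.

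Scaffold NW_003377877.1 was also the most crowded of the 64 scaffolds with a span of at least 1 Mb. It held 179 narrow shared regions over 1670135 bases, or 107 per Mb, and 158 longer ones. The window of 10 kb with the most held 6, and of the 3 windows with 6 the first by name was on this scaffold too, over 9884 bases. Its first region, from 191195 to 191638, had scores of 33 and 65 in the queen lists, 22 and 76 in the queen-less lists, and 26 and 19 in the queen-right lists. Widths of the 6 were 307 to 598 bases. The lowest percentile of each was between 1.33 and 47.9. Spacing was not compared with rank over the other regions.

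Across the 64 scaffolds the number per Mb had a median of 29.3 with quartiles at 19.2 and 40.3. Scaffolds with over 50% of their span in longer shared regions ranged widely. On NW_003378111.1, where longer shared regions took up 75% of the span, 0 were found, against 72 longer ones. On NW_003378059.1, with 69.3% in longer regions, 5 were found. On NW_003378010.1, with 53.3%, there were 119, or 41.4 per Mb, which is above the upper quartile. The Spearman correlation over the 64 scaffolds was -0.62 with the share of the span in longer shared regions and 0.29 with the number of longer shared regions per Mb. Sequence inside a longer region cannot hold a separate narrow one, which bears on the first of these values. Scaffolds under 100 kb held 159 (2.12%) of the narrow shared regions and 0.933% of the longer ones.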

How the data were processed

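H3K27me3 ChIP-seq peak lists were analysed for 6 ovary samples (2 per ovary type). The 3 input samples were not analysed here. The authors deposited 1 list per sample, whose rows hold a scaffold, 2 positions and a score. The submitters' processing notes name Bowtie 1.0, SAMtools 1.5, MACS2 and bedtools. The peak names give a broad mode, a cutoff of 0.1 and reads extended to 147 bases. For these peak calls, the genome build, the read filters and the use of the inputs are not given in the sources used here. The study separately computed fold enrichment over input with MACS2, which was not used here.

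Peaks of the 6 lists sharing at least 1 base were merged. Scores were ranked as mid-rank percentiles within their own list, because they depend on depth. The lists hold no read counts, so no depth and no counting interval can be given. Per-sample values were compared by exact two-sided permutation, for which 2 samples against 2 allow no p below 0.333. Regions are not replicates and were not tested. Named regions follow fixed rules, which are the extremes of score rank, width, isolation, crowding, group difference and scaffold density. The members, rules and comparisons were chosen with earlier results of these data known. The code was tested on simulated data. Of the chromosome names in the gene table at hand (assembly Amel_HAv3.1), 0 match a scaffold of the lists, so genes and sequences were not analysed here. Alternatives on scaffolds of at least 1 Mb and with ranks among members alone, and every alternative for counts of regions with separate groups, were added after the data were examined. Python 3.11.15, NumPy 2.4.6, pandas 2.3.3, SciPy 1.17.1 and matplotlib 3.10.9 were used.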

Additional observations from a re-analysis of the deposited data

How the results depend on the processing

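Of 104 alternative values of the number of regions and of the 6 differences between ovary types, 93 stayed within 1.5 times the count or within the pooled replicate SD, and 11 moved further. No difference had passed a threshold and no permutation test here can. The 0 counted as reversed was therefore fixed beforehand, and an unchanged test says nothing about stability. A change of sign alone did not count as moving further. Queens minus queen-less workers, at -2.94 percentile points, became 4.06 with covered bases made equal. It became 3.21 without queen-less worker 2 and stayed negative in its other alternatives. In covered share, queen-less minus queen-right workers was 4.67 points. It was -4.37 without queen-less worker 2, -0.329 without queen-right worker 2 and positive in its other alternatives. The number of narrow shared regions was 4394 with a minimum score of 20, 2704 at equal covered bases, 2917 with peaks closer than 1 kb joined, 2772 under 500 bases, 14141 under 2000 bases, 4102 with peaks covering at least 50% of the region and 3539 on scaffolds of at least 1 Mb. At equal covered bases, which kept 18270 peaks of queen-less worker 2 and all 50922 of queen-right worker 2, queen-less minus queen-right workers became -5.48 percentile points. Without each sample in turn, queens minus queen-less workers ran from -11.1 to 3.21 percentile points and from -17.1 to 2.65 points of covered share, the ends being without queen-less worker 1 and without queen-less worker 2. The number of regions ran from 8032 to 9461 when 5 lists had to share them. Taking the label's number as a replicate block left queens minus queen-less workers at -2.94 percentile points, as it must for equal groups, and within the block no p can fall below 0.5. Deviations of same-numbered samples over the regions correlated at -0.0231 to 0.0222, so the numbers gave no sign of pairing. The peak names of queens 1 and 2 carry the numbers 2 and 3, so which queen shares a number with which worker sample is uncertain here and in the block. The shares of regions with separate groups, of regions near a longer one and the median spacing gave 82 further values, of which 53 lay outside a 95% interval that counts regions as independent and is therefore too narrow. At equal covered bases queens ranked above queen-less workers in 25.1% of regions and below them in 14.5%, the opposite order. No background share was computed at that setting. Unknown depth limits every count of regions.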
